A study of Mus musculus with 24 samples.

Results

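Tek, the angiopoietin receptor of endothelial cells, was followed with 9 other genes of the liver endothelium in livers of mice on 3 diets. The members were all probe sets whose platform annotation lists exactly 1 gene symbol, that symbol being Tek, Tie1, Kdr, Flt1, Pecam1, Ptprb, Stab1, Stab2, Lyve1 or Clec4g. This gave 17 probe sets for 10 genes, of 45101 probe sets and 18193 named genes in all. Tek, Tie1, Kdr, Pecam1, Stab1 and Stab2 had 1 probe set each, Lyve1 and Clec4g 2, Ptprb 3 and Flt1 4. Tek entered because an earlier analysis of the same values had called it in HF against LF livers, so its difference in that comparison is a description and not a test. The other 9 genes were added as known endothelial genes.

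All animals were male C57BL6J mice that had been acclimated on low-fat food, kept on their diet for 4 weeks and fasted for 16 h before the liver was taken. The HF+P group (6 mice) ate a high-fat diet with 45% fat to which 5% propagule powder of Japanese yam had been added, the HF group (6 mice) ate the same high-fat diet alone, and the LF group (6 mice) ate the low-fat diet. The question of HF against LF was the effect of fat loading, and that of HF+P against HF the effect of eating propagules. RNA of each liver was read on 1 Affymetrix 3' array. The HF arrays were processed by the authors once together with LF and once together with HF+P, so the HF values of one comparison are not those of the other. Ages are not given in the labels.

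Liver sinusoids are lined by a fenestrated endothelium that clears waste molecules from blood and sends signals to hepatocytes. Angiopoietins act on the receptor kinase Tek, also called Tie2, whose activity is modulated by the related receptor Tie1 and lowered by the phosphatase Ptprb, and this axis keeps vessels quiescent. VEGF acts through the receptor kinases Kdr and Flt1, and the scavenger receptors Stab1 and Stab2, the hyaluronan receptor Lyve1 and the lectin Clec4g mark the sinusoidal lining. In whole liver, fewer endothelial cells and less RNA per endothelial cell cannot be told apart.

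The start regions of Tek, of its relative Tie1 and of Kdr are shown because their differences between HF and LF livers were negative, near 0 and positive in that order in the values as deposited. After quantile normalisation and after median centring the differences of Tek, Tie1 and Kdr were each negative. Each is the RefSeq window of GRCm38.p6 from 250 bases before to 50 bases after the gene's start, 300 bases in all, and 7 of the 10 genes had such a window. Capitals mark AGGAAG or its reverse CTTCCT, which is an ETS-type motif, and AGATAA or its reverse TTATCT, which is a GATA-type motif; the ETS and GATA families hold regulators of endothelial genes. The matches in the printed windows do not overlap each other.
Tek, chr4:94739039-94739338, plus strand: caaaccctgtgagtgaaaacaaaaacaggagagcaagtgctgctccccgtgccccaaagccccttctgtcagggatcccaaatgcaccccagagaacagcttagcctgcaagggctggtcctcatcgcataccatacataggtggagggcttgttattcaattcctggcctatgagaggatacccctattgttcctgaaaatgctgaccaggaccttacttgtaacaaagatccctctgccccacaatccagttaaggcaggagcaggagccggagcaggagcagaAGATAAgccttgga
Tie1, chr4:118489800-118490099, minus strand: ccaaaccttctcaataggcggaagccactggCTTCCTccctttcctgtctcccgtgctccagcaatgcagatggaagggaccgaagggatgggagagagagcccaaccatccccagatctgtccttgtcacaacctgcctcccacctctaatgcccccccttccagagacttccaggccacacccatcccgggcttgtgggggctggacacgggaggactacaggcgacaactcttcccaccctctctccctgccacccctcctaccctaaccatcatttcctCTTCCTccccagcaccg
Kdr, chr5:75978406-75978705, minus strand: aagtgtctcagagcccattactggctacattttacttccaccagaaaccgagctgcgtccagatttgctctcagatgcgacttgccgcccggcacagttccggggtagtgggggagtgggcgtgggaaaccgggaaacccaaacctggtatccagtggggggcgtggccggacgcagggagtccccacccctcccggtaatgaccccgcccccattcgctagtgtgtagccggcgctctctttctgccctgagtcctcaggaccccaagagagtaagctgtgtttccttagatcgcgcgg
The window of Tek held 1 GATA-type motif and 0 ETS-type motifs, that of Tie1 held 2 ETS-type motifs and 0 GATA-type motifs, and that of Kdr held neither. Flt1 had 2 ETS-type motifs, Clec4g 3 (a neighbouring pair of which overlaps), Stab1 1 and Stab2 1, none of them with a GATA-type motif. Of all 32851 windows of the same length in the table, 35.4% held the ETS-type motif and 11.2% the GATA-type motif. These letters are a description of the windows and were not measured here.

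The deposited values were read as log2 values from their range, but they differ between arrays by very little, with a median pooled within-group SD over probe sets of 4.06e-06 in the LF and HF set and 4.20e-06 in the HF and HF+P set. No fold change can be read from them. Sizes are therefore given in SDs: the value of a mouse is its distance from the mean of the comparison group in pooled within-group SDs, and a standardized difference is the difference of the 2 group means in the same SDs with Hedges' correction for small samples. The 12 column medians lay between 6.89742 and 6.89748 in the LF and HF set and between 6.84835 and 6.84836 in the other, and 13 of the 17 probe sets were brighter than the column median in both sets. All 11 measured hepatocyte markers lay above the upper quartile of probe set levels in both sets. Over all 45037 probe sets that are not array controls, 302 were called in HF against LF, 121 higher (0.269%) and 181 lower (0.402%), and 1 was called higher in HF+P against HF (limma, Benjamini-Hochberg adjusted p below 0.05). After quantile normalisation the first split was 175 higher and 6559 lower, and after median centring 425 higher and 39841 lower; the median standardized difference of all genes moved to -0.84 and -2.0 under these scalings.

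The receptor Tek lay lower in HF livers than in LF livers. Its deposited values were 8.543441, 8.543446, 8.543428, 8.543441, 8.543423 and 8.543423 in HF mice 1, 2, 3, 4, 5 and 8, against 8.543447, 8.543470, 8.543473, 8.543459, 8.543459 and 8.543456 in LF mice 1, 2, 3, 4, 5 and 8. Every HF mouse was below every LF mouse, but the gap was narrow, since HF mouse 2 (-1.49 SDs from the LF mean) stood next to LF mouse 1 (-1.39). HF mice 3, 5 and 8 were the lowest, at -3.28, -3.83 and -3.85. The standardized difference was -2.53 (95% interval -4.02 to -0.99, n = 6 per group). Groups that do not overlap were found in 1.57% of all probe sets, 0.644% with HF higher and 0.921% with HF lower, and Tek was chosen from among genes of this kind. The deposited difference was -2.72e-05, smaller in size than the shift of the column medians between HF and LF, 3.36e-05. Among the members only the differences of Lyve1 were larger than that shift. The earlier call rested on adjusting over 1 probe set per gene, where limma's adjusted p was 0.0402; adjusted over all probe sets it was 0.0576, so that Tek was not among the 302.

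None of the other 9 genes was called in HF against LF: of their 16 probe sets 0 passed (limma, adjusted p between 0.128 and 0.983; the share called over all probe sets was 0.671%). An unadjusted p below 0.05 was found for 4 of the 16, where 12.9% of all probe sets had one. Of the 16, 6 had higher means and 10 lower means in HF.

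**Figure D1:**
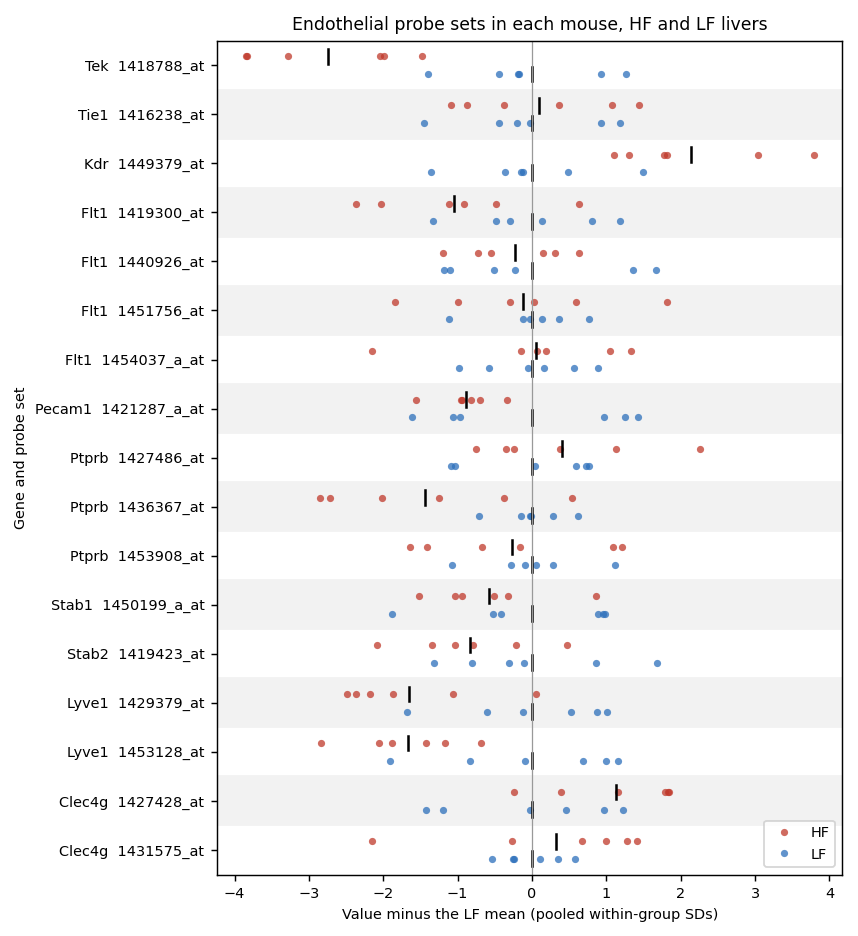
Value of each mouse minus the LF mean, in pooled within-group SDs (x axis), for the 17 probe sets (rows); red points are the 6 HF mice, blue points the 6 LF mice and black bars the group means. The HF and LF points of Tek are separate, those of Kdr overlap through LF mouse 8, and those of the other rows overlap.

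Tie1, the partner receptor of Tek, lay near 0; whether its difference and that of Tek are unequal was not tested. HF mice ran from -1.09 over a median of -0.01 to 1.44 SDs, against -1.45, -0.11 and 1.18 in LF mice, so the groups covered the same range. Its standardized difference was 0.08 (-0.96 to 1.13), and its sign was negative after quantile normalisation (-1.12), after median centring (-2.08) and in 3 of the 12 fits without 1 mouse. Of the ligands and other receptor partners, none of the 4 measured genes Angpt1, Angpt2, Angpt4 and Svep1 passed (limma, 0 with an unadjusted p below 0.05). Angpt4 was at 1.02 (-0.14 to 2.13) and Angpt2, the ligand known as a context-dependent antagonist of Tek, at -1.0 (-2.11 to 0.15).

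The 3 probe sets of Ptprb, the vascular endothelial phosphatase that acts on Tek, disagreed in sign. For the brightest, 1436367_at, HF mice had a lowest value of -2.85, a median of -1.64 and a highest value of 0.54 SDs, against -0.71, -0.02 and 0.62 in LF mice. HF mice 1 to 4 lay below all LF mice while HF mouse 8 lay among the highest, and the standardized difference was -1.33 (-2.50 to -0.12; limma, adjusted p = 0.298). Over 19 other settings this difference ran from -2.19 to -0.26, and over the fits without 1 mouse from -2.19 to -1.15. The probe set 1427486_at was at 0.37 (-0.69 to 1.42), with -0.11 after median centring, and the dimmer 1453908_at at -0.24 (-1.29 to 0.81). Of the 9 measured genes of signalling below the receptor 3 had higher and 6 lower means, 0 passed and 1 had an unadjusted p below 0.05, where 2753 of all 18193 genes had one. Ptpn11, the phosphatase SHP2, was at -1.42 (-2.60 to -0.18) and the adaptor Grb2 at 1.01 (-0.14 to 2.12).

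Kdr, the main signalling receptor for VEGF, lay on the other side of Tek. HF mice ran from 1.10 over 1.79 to 3.79 SDs, against -1.35, -0.13 and 1.49 in LF mice. All 6 HF mice were above the LF mean and 4 of them were above every LF mouse, LF mouse 8 being the highest of its group. The standardized difference was 1.97 (0.60 to 3.29; limma, adjusted p = 0.128), but with -1.70 after quantile normalisation and -1.71 after median centring its sign depended on the scaling. Kdr also had a small spread, with a pooled SD 0.596 times the median over all probe sets, and its deposited difference of 5.17e-06 was below the shift of the column medians between HF and LF, 3.36e-05.

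Flt1, the VEGF receptor that also exists as a soluble decoy, gave no common direction in the values as deposited, while all 4 of its probe sets had lower means in HF after quantile normalisation (-2.08 to -0.04) and after median centring (-2.33 to -1.90). The probe set 1419300_at was at -0.97 (-2.07 to 0.18), with HF mice between -2.37 and 0.63 SDs against -1.34 to 1.18 in LF mice. The other 3 probe sets were at -0.21, -0.11 and 0.05, and their groups overlapped throughout. Among the other 8 VEGF ligands and receptors 0 passed, 4 were higher and 4 lower in HF, and 3 had an unadjusted p below 0.05. Of all 18193 genes, 2753 had one. The co-receptors Nrp1 and Nrp2 were at 1.49 (0.24 to 2.7; adjusted p = 0.236) and 1.25 (0.05 to 2.40; adjusted p = 0.333) in limma. Pecam1, an adhesion molecule of endothelial junctions, was at -0.82 (-1.90 to 0.30); its HF mice lay close together between -1.55 and -0.34, within the LF range of -1.61 to 1.43. Its direction depended on the scaling, with 0.81 after quantile normalisation and -2.34 after median centring.

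Both probe sets of Lyve1 pointed the same way, and they had by far the widest spread among the members, with pooled SDs 263.1 and 74.8 times the median over all probe sets. For 1429379_at HF mice ran from -2.48 over -2.02 to 0.05 SDs, against -1.68, 0.20 and 1.01 in LF mice, with HF mice 1, 2, 3 and 4 below every LF mouse. The standardized difference was -1.52 (-2.73 to -0.26; limma, adjusted p = 0.225). For 1453128_at HF mice ran from -2.84 over -1.65 to -0.68, against -1.91, 0.30 and 1.16 in LF mice, with a standardized difference of -1.54 (-2.76 to -0.28; limma, adjusted p = 0.218). All 6 HF mice were below the LF mean in 1453128_at and 5 in 1429379_at. LF mouse 8 was the lowest LF mouse in both. The 2 probe sets belong to the same gene and are not separate evidence.

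The scavenger receptors had smaller differences. Stab1 was at -0.53 (-1.59 to 0.55) and Stab2 at -0.77 (-1.85 to 0.34), with overlapping groups in both. Clec4g, a lectin of the sinusoidal lining, was at 1.04 (-0.12 to 2.16) in its bright probe set 1427428_at, where HF mice lay between -0.24 and 1.85 SDs against -1.43 to 1.22 in LF mice. Its sign there was negative after median centring and after quantile normalisation. The dim probe set 1431575_at was at 0.30 (-0.76 to 1.34).

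Wider endothelial lists are given for context. Of 24 general endothelial genes 22 had lower means in HF livers, and their median standardized difference was -0.53, where 49.3% of all 18193 genes were lower and the median was 0.01. In limma 0 of the 24 passed and 3 had an unadjusted p below 0.05, where 2753 of all 18193 genes had one. Ramp2, a co-receptor for adrenomedullin, was at -1.76 (-3.03 to -0.44; adjusted p = 0.162) and Emcn, endomucin, at -1.29 (-2.45 to -0.08; adjusted p = 0.316). Averaged over the 24 genes, HF mice lay between -1.06 and -0.30 SDs against -0.57 to 0.80 in LF mice, so the groups overlapped. HF mouse 3 was the lowest, and without it 21 of 24 were lower with a median of -0.47. Over all 12 fits without 1 mouse the count ran from 19 of 24, without LF mouse 8, to 22 of 24. After quantile normalisation 23 of 24 were lower, where 76.3% of all genes were, and after median centring 24 of 24, where 94.9% were. Of 18 further sinusoidal genes 10 were lower and 8 higher (median -0.12), 0 passed and 1 had an unadjusted p below 0.05: the sinusoidal secreted protein gene Oit3 was at -1.78 (-3.05 to -0.46; adjusted p = 0.168).

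Markers of other liver cells are given beside these values. Kupffer cell markers had higher means in HF for 11 of 12 genes (median 0.65). After quantile normalisation 9 of these 12 were higher, and after median centring 11. Lymphocyte markers had higher means for 10 of 10 (median 0.78, but for 0 of 10 after quantile normalisation and 1 of 10 after median centring). Stellate markers had higher means for 8 of 12 genes (median 0.30), but for 2 of 12 after quantile normalisation (median -0.58) and 3 of 12 after median centring, and red cell markers for 2 of 3, but for 1 of 3 under both scalings. Hepatocyte markers had a median of -0.28 over 11 genes and bile duct markers -0.35 over 5. The gene at the hepatocyte median had a level of 14.6, near the highest value of the set, 15.02. Its unadjusted p in limma was 0.947, so the sign of this median carries little. No median was obtained for either list after quantile normalisation. All 11 hepatocyte and all 5 bile duct markers were lower after median centring, where 94.9% of all genes were. In the values as deposited none of these genes passed in limma, and 1 Kupffer, 1 lymphocyte, 3 stellate, 1 red cell, 3 hepatocyte and 0 bile duct genes had an unadjusted p below 0.05. Of all 18193 genes, 2753 had one. HF mouse 3 had the highest average of Kupffer (2.39 SDs) and lymphocyte markers (2.10) among HF mice and the lowest of general endothelial genes. The same mouse had the highest HF average of the 18 further sinusoidal genes (0.12). It had the lowest HF average of hepatocyte (-0.81) and bile duct markers (-1.08). The part of these markers in the values of Tek was not tested; without HF mouse 3 the standardized difference of Tek was -2.33.

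**Figure D2:**
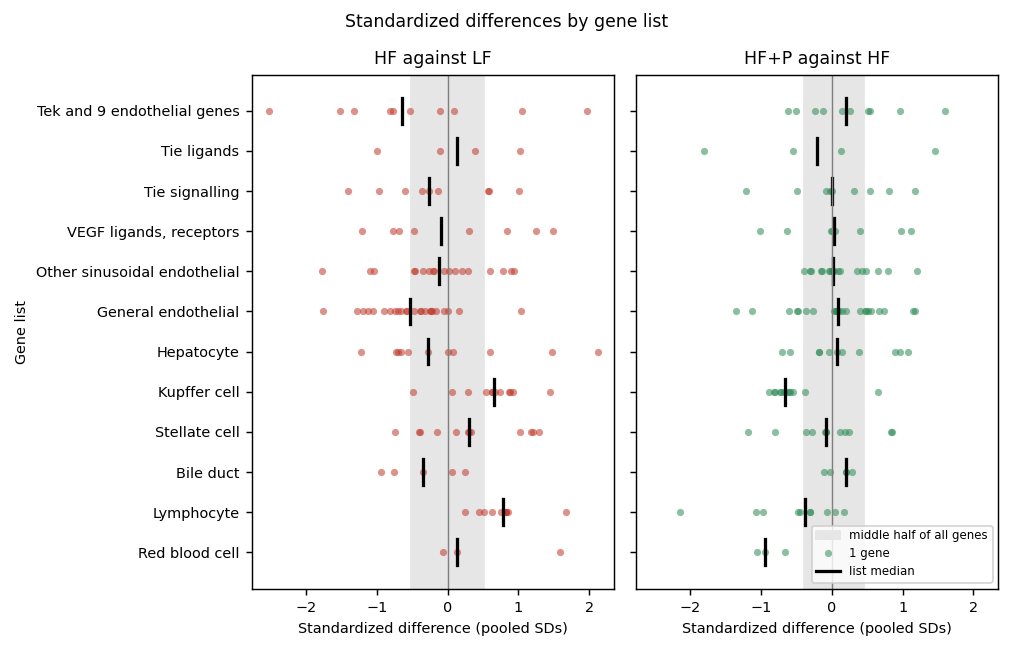
Standardized difference of each gene (points, pooled SDs, x axis) by gene list (rows) for HF against LF (left) and HF+P against HF (right); black bars are list medians and the grey band runs from the lower to the upper quartile of all genes. The general endothelial genes lie mostly left of 0 in HF against LF, with a median of -0.53, and around 0 in HF+P against HF, with a median of 0.08.

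In HF+P livers none of the 17 probe sets differed from HF past the threshold (limma, 0 called, where the share over all probe sets was 0.00222%). An unadjusted p below 0.05 was found for 1 of the 17, that of Tek, where 6.94% of all probe sets had one. The groups overlapped in all 17, while 0.355% of all probe sets had groups that did not, 0.162% with HF+P higher and 0.193% with HF+P lower. The HF mice of this comparison are those of the comparison with LF, so that the 2 differences of a gene are not independent.

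Tek had the largest difference among the members here too, but it was chosen by its difference between the same HF mice and LF mice. Its rank and direction here are therefore not independent of that choice. Its deposited values were 8.267790, 8.267796, 8.267787, 8.267778, 8.267777 and 8.267776 in HF+P mice 1, 2, 3, 4, 7 and 8, against 8.267776, 8.267779, 8.267769, 8.267776, 8.267766 and 8.267768 in HF mice 1, 2, 3, 4, 5 and 8. HF+P mice 1, 2 and 3 lay above every HF mouse, and HF+P mice 4, 7 and 8 lay between HF mice 1 and 2. The standardized difference was 1.61 (0.32 to 2.83, n = 6 per group; limma, adjusted p = 0.583). The value in HF against LF was -2.53, with the same HF mice in both, and whether propagules reversed it was not tested.

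**Figure D3:**
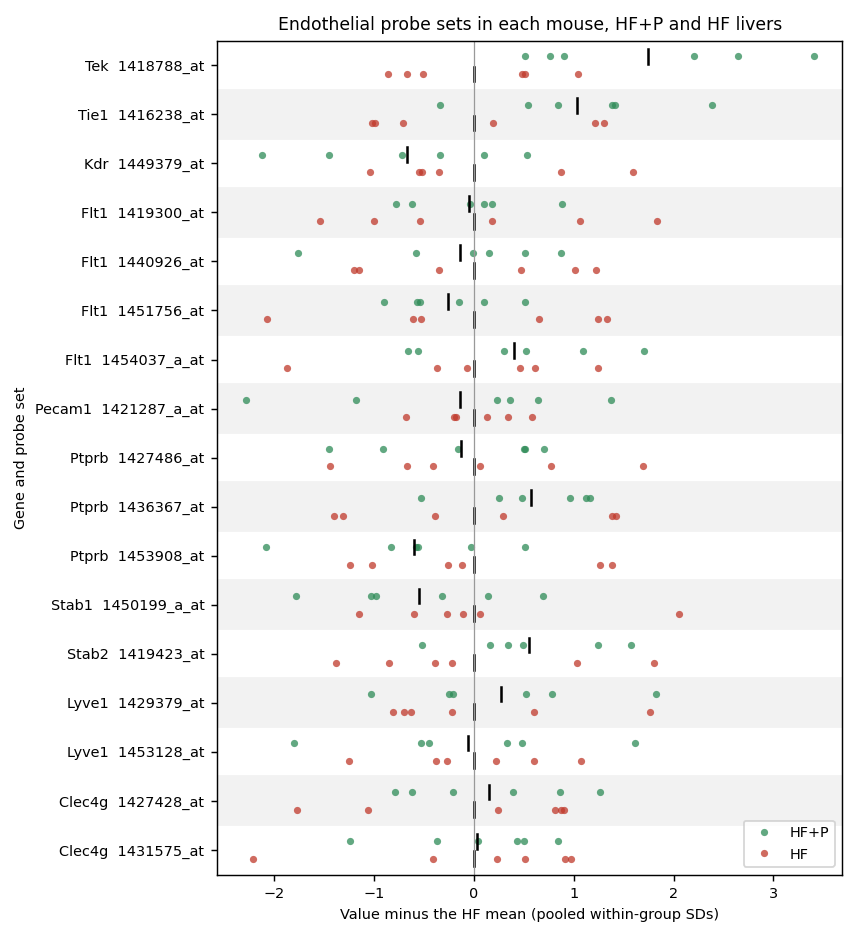
Value of each mouse minus the HF mean, in pooled within-group SDs (x axis), for the 17 probe sets (rows); green points are the 6 HF+P mice, red points the 6 HF mice and black bars the group means. In Tek 3 HF+P mice lie above all HF mice, and in every row the 2 groups overlap.

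Tie1 stood at 0.96 (-0.19 to 2.06; limma, adjusted p = 0.770), with HF+P mice from -0.34 over 1.11 to 2.39 SDs against -1.02, -0.26 and 1.3 in HF mice. HF+P mice 1, 2 and 7 were above every HF mouse. Among the ligands 0 of 4 passed and 2 had an unadjusted p below 0.05, where 1282 of all 18193 genes had one. Angpt1, the ligand that activates Tek, was at -1.81 (-3.09 to -0.48; adjusted p = 0.545) and Angpt2 at 1.46 (0.21 to 2.65; adjusted p = 0.661), both from probe sets dimmer than the column median. Downstream, 0 of 9 passed and 2 had an unadjusted p below 0.05; the docking protein Dok2 was at -1.21 (-2.35 to -0.02) and Ptpn11 at 1.18 (-0.01 to 2.32).

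The remaining members had standardized differences between -0.61 and 0.53. Kdr was at -0.61 (-1.68 to 0.48), with HF+P mice between -2.13 and 0.54 SDs against -1.04 to 1.59 in HF mice. The 3 probe sets of Ptprb ran from -0.55 to 0.53 and the 4 of Flt1 from -0.24 to 0.37. Lyve1 was at 0.25 (-0.80 to 1.3) and -0.06 (-1.10 to 0.99), and HF+P mouse 8 and HF mouse 8 were the highest of their groups in both of its probe sets. Stab1 was at -0.50 (-1.56 to 0.57), Stab2 at 0.51 (-0.57 to 1.56), Pecam1 at -0.13 (-1.18 to 0.92) and Clec4g at 0.14 (-0.91 to 1.18) and 0.03 (-1.01 to 1.08). Each of these intervals reaches past 1 SD or close to it on at least 1 side.

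**Figure D4:**
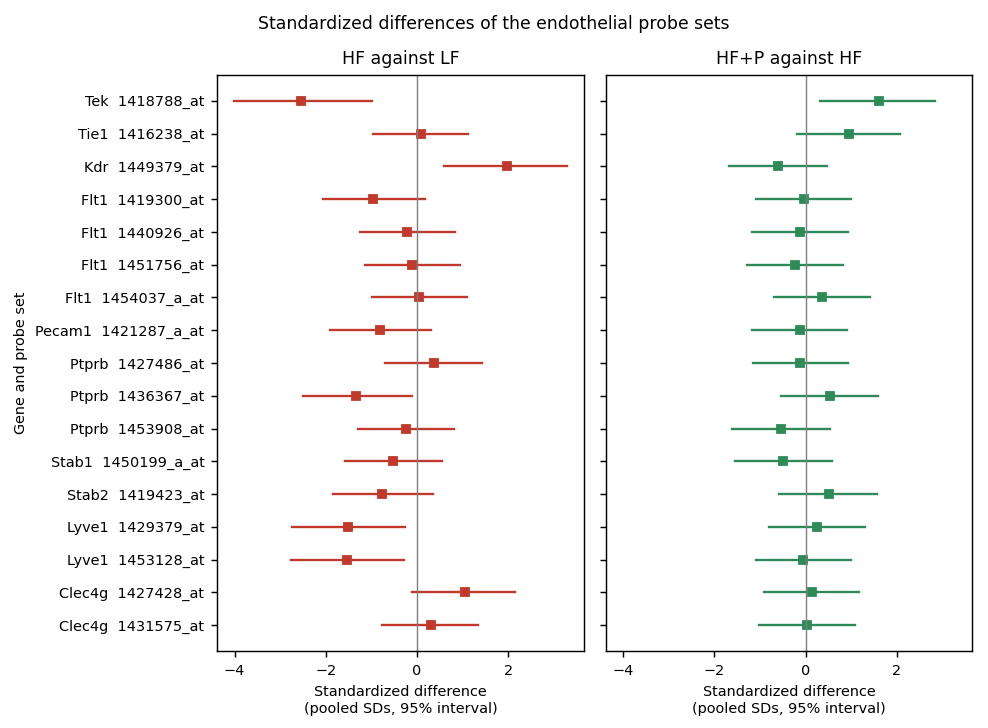
Standardized difference (squares, pooled SDs) with its 95% interval (lines) for the 17 probe sets, HF against LF on the left and HF+P against HF on the right. The interval leaves out 0 for 5 probe sets on the left (Tek, Kdr, 1 of Ptprb and both of Lyve1) and for 1 on the right (Tek). Over all probe sets, limma gave an unadjusted p below 0.05 for 12.9% on the left and 6.94% on the right. Tek was chosen from the HF and LF values, and the same HF mice are on the right, so its intervals are descriptions and not tests.

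Of the 24 general endothelial genes 17 had higher means in HF+P, with a median of 0.08 and 0 called (limma; 3 with an unadjusted p below 0.05); of all genes 51.5% were higher and the median was 0.02. Without HF+P mouse 2 the count was 12 of 24. Plvap, a protein of endothelial diaphragms, was at -1.36 (-2.53 to -0.13) and Ramp2 at 1.18 (-0.01 to 2.32). Of the 18 further sinusoidal genes 11 were higher (median 0.02), 0 were called and 1 had an unadjusted p below 0.05, with Oit3 at 1.20 (0.01 to 2.34). Among 8 VEGF genes 0 passed and 0 had an unadjusted p below 0.05; Nrp2 was at 1.11 (-0.06 to 2.24). Kupffer cell markers had lower means for 11 of 12 genes (median -0.66) and lymphocyte markers for 8 of 10 (median -0.38), with 0 called in either list, and 0 and 1 genes with an unadjusted p below 0.05; their part in the endothelial values was not tested. Over all 18193 genes, 1282 had an unadjusted p below 0.05 in this comparison.

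How the members varied among the mice within a diet was followed over group-centred values of the 12 mice in each set, with 1 probe set per gene. The Pearson correlation with Tek ran from -0.31 (Ptprb and Lyve1) to 0.36 (Clec4g) over HF and LF mice, and from -0.71 (Lyve1) to 0.62 (Clec4g) over HF+P and HF mice, where the median size over all genes was 0.25 and 0.26. These are descriptions of 12 arrays, and the HF arrays are in both sets. The 5 genes most like Tek over HF and LF mice were Eno2 (r = 0.93), Rfx1 (0.90), Senp8 (0.88), Slco1b2 (0.88) and Igkv4-68 (0.87), the highest of 18192; over HF+P and HF mice the same genes had r of -0.05, 0.69, -0.17, 0.56 and 0.15. None of the genes of the endothelial lists was among them.

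The HF arrays, processed in both sets, show how far the order of mice was kept from one processing to the other. Of the 15 pairs of HF mice, 13 had the same order for Tek in both sets, and the count ran from 12 to 15 over the 17 probe sets, with a median of 14 over all probe sets as well. The spread changed more: the SD of the HF mice in the set with LF was 1.91 times that in the set with HF+P for Tek, 3.34 times for Stab2 and 0.231 times for Stab1. Standardized differences of the 2 comparisons are therefore in different SDs.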

How the data were processed

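Per the labels' protocols, total RNA of each liver was extracted with Trizol, and biotinylated RNA was hybridised to Affymetrix 3' arrays. The values deposited by the authors were handled as log2 values from their range; no source used here gives the summarisation, the normalisation or the log base, and the submitters' processing notes name R 2.7.2. Centring is unknown too. Every label was taken to be 1 animal, so p-values measure the spread between these samples, and no 2 arrays of a group shared over 0.0466% of their values.

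Of the 45101 probe sets, 64 array controls were left out. A single symbol was listed for 34945 of the rest, several for 932, and 9160 were not listed. Both fits used limma 3.58.1 under R 4.3.3, with lmFit followed by eBayes, over 45037 probe sets with 6 arrays per group, two-sided, with no covariate and a Benjamini-Hochberg threshold of 0.05. Intervals at 95% come from the noncentral t distribution. The number of arrays limits the precision.

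The members and the 11 other lists were chosen with earlier results of these data known. Beside the members, the text names up to 2 genes per list and comparison with the largest standardized differences, genes represented by their brightest probe set, and the 5 genes most correlated with Tek. The alternatives were quantile normalisation, median centring, leaving out dim probe sets, 1 probe set per gene, trend and robust settings, array weights, a replicate block of mouse numbers, and fits without 1 mouse.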

Additional observations from a re-analysis of the deposited data

How the results depend on the processing

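Over the 17 probe sets, 279 of 312 standardized differences under other settings in HF against LF kept their side of the threshold and moved by under 1 SD, and 310 of 312 in HF+P against HF. Most of these settings left out 1 mouse or changed only the limma fit or the probe sets tested. The rescalings changed more in HF against LF: 15 of the 17 were called after median centring and 8 after quantile normalisation, with 6 signs turned in each. Tek kept its sign in all 19 settings of each comparison, from -3.16 to -2.29 in HF against LF and from 0.90 to 1.90 in HF+P against HF. In HF against LF it passed the threshold in 4 settings: quantile normalisation (adjusted p = 0.0160), median centring (0.00561), without dim probe sets (0.0355) and with 1 probe set per gene (0.0402). It passed in 0 of the 12 fits without 1 mouse (adjusted p 0.0563 to 0.120). Tek was chosen by the call with 1 probe set per gene on these same values, so its passes are a description and not a test. Of all 18193 genes, 2914 were called lower after quantile normalisation, 15879 after median centring and 208 with 1 probe set per gene. Without dim probe sets 226 of 11656 were called lower.

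Median centring took the shift of 3.36e-05 between the column medians out of HF against LF, and the cause of the shift under quantile normalisation was not tested. In HF+P against HF the median over all genes moved to 0.18 (quantile normalisation) and 0.33 (median centring). Under median centring 15 of the 17 probe sets were called lower in HF, where 15879 of all 18193 genes were called lower as well. Signs turned there for Tie1 (-2.08), Kdr (-1.71), Flt1 1454037_a_at (-1.90), Ptprb 1427486_at (-0.11) and Clec4g 1431575_at (-1.99) and 1427428_at (-0.23), 6 in all. Under quantile normalisation 8 of the 17 were called lower, where 2914 of all 18193 genes were. Signs turned there for Tie1 (-1.12), Kdr (-1.70), Flt1 1454037_a_at (-2.08), Pecam1 (0.81) and Clec4g 1431575_at (-1.80) and 1427428_at (-0.85), 6 in all.

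The 302 calls of HF against LF became 6734 (quantile normalisation), 40266 (median centring) and 568 (without dim probe sets, where fewer were tested), of which 129, 284 and 268 were among the 302. Leaving out 1 mouse gave 131 to 325 calls: 151, 174 and 173 without HF mice 2, 3 and 4, and 174, 145, 131 and 174 without LF mice 1, 3, 5 and 8. In HF+P against HF the 1 call became 0 to 2: 0 without HF+P mouse 1, 2 or 4 and 2 without HF mouse 2.

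The mouse numbers share no stated litter or day. As a replicate block they gave 246 calls in HF against LF, 120 of them among the 302, and 1 in HF+P against HF; Tek had an adjusted p of 0.118 and 0.463. Deviations of mice with the same number correlated between -0.130 and 0.0976 over 6 pairs and between 0.0338 and 0.209 over 5 pairs. Among the 6 mice of the other group, 4 of 6 and 3 of 5 correlated best with their own number. Numbers without meaning would give about 1 in 6. Whether the numbers link mice across groups was not tested. In 68 groups of 6 values examined with Dixon's test, 0 held a mouse that stood apart. Probe sets dimmer than the column median (4 of 17) carry the least signal.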
